A study of Homo sapiens with 12 samples.

Results

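Chromosome 8 carries 59 of the genes described here, all of them lying between the tip of the short arm and ASAP1, a gene on the distal long arm. They were taken by name from a list that had been selected on measured values: most of them had lower counts in a SETD2-edited clone of the KOPN-8 line than in its control. The list holds 30 genes of the short arm and 29 of the long arm, among 420 chromosome 8 genes up to ASAP1 that had enough counts to be tested, 15218 tested genes in all and 59611 gene symbols in the count table. All 59 passed the filter on low counts. Because the edited-over-control contrast in KOPN-8 chose these genes, their values in that contrast are given as a description, without p-values.

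The study compared 2 human leukaemia lines of the B lineage by stranded, poly-A-selected RNA-seq, with 3 libraries in each of 4 groups. KOPN-8 cells, which carry a KMT2A fusion, were represented by clone BA, labelled SETD2 heterozygous knockout, and by an empty-vector guide RNA control labelled SETD2 wild type. The 697 cells were represented by clone BM_B, labelled SETD2 heterozygous knockout, and by their own empty-vector control labelled SETD2 wild type. SETD2 is the enzyme that trimethylates lysine 36 of histone H3 in transcribed genes, and neither line received a drug treatment according to the labels. "Edited" below means the library is labelled heterozygous knockout. Each edited group is 1 clone, so the edit and any other difference of that clone cannot be told apart, and whether the control of either line was cloned is not in the labels. The 3 libraries of a group are labelled biological replicates and nothing more is said of how they were separated, so p-values measure the spread between these libraries. DNA was not measured in the data used here. Copy number of chromosome 8 and RNA output per copy therefore cannot be told apart, and neither can fewer expressing cells and less RNA per cell.

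Gene dosage is the relation between the number of copies of a gene and the amount of its product. In aneuploid cells the transcripts of most genes on an altered chromosome tend to move together, while single genes can depart from the rest because of their own promoters, feedback loops or RNA decay. Many genes of chromosome 8 encode subunits of complexes, such as cohesin, Integrator and the translation factor eIF3, whose other subunits are encoded elsewhere in the genome. Aneuploidy of chromosome 8 is recurrent in leukaemia.

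Library totals ran from 13239627 to 18278662 counts in edited KOPN-8, 13208436 to 17959678 in control KOPN-8, 10378769 to 14350925 in edited 697 and 13432744 to 17163305 in control 697. Levels are given in CPM (the share of a library's counts, scaled to a fixed total) on TMM-scaled library sizes, which compare a gene between libraries and not genes with each other. All 6 markers fixed for the B lineage (such as PAX5) stood between 88.8 and 787 CPM in every library. The 5 T-lineage markers reached at most 0.519 CPM, the 4 erythroid markers at most 0.0654 CPM and the 5 monocyte and granulocyte markers at most 3.38 CPM in any library. SETD2 itself averaged 158 ± 6.05 CPM in edited KOPN-8 and 169 ± 9.23 CPM in control KOPN-8, and 219 ± 17.2 CPM in edited 697 and 161 ± 6.96 CPM in control 697 (SD, n = 3 each). In edgeR's quasi-likelihood test with Benjamini-Hochberg adjustment, SETD2 was higher in edited than in control 697, at a log2 fold change of 0.44 (adjusted p = 0.000103). In KOPN-8 its log2 fold change, edited over control, was -0.10 (edgeR adjusted p = 0.309). Gene-level counts do not check a heterozygous genotype, since an edited allele can still be transcribed.

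In KOPN-8 the chromosome 8 genes stood lower in the edited clone as a block. The 59 genes together took 0.841% ± 0.0194 of all counts in edited KOPN-8 and 1.26% ± 0.00995 in control KOPN-8 (SD, n = 3 each). In 697 they took 1.18% ± 0.0269 in the edited clone and 1.12% ± 0.0391 in the control. The edited KOPN-8 share was the lowest of the 4 groups. The median log2 fold change of the 59 genes, edited over control, was -0.59 in KOPN-8, which puts the edited clone at 66.6% of the control. Among all 420 tested chromosome 8 genes up to ASAP1 the median was -0.58, or 66.9% of the control, and among the 361 that are not on the list it was also -0.58. Over all 15218 tested genes it was 0.00. The stretch up to ASAP1 is that of the selected list, so the 361 are not independent of the selection. On this scale a ratio of 2 to 3 is -0.585, which is given for scale only. Whether copy number differed was not tested.

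For 58 of the 59 genes the 3 edited KOPN-8 libraries all lay below the 3 control libraries, and for CPNE3 they all lay above. Over all tested genes such separation was seen downward in 24.7% and upward in 20.4%. At an adjusted p under 0.05 in edgeR's quasi-likelihood test with Benjamini-Hochberg adjustment, 56 of the 59 were called lower, 1 was called higher and 2 were not called, while 17.2% of all tested genes were called lower and 11.5% higher. Since this contrast supplied the list, nothing further can be read from these counts. PLEKHA2 and AZIN1 were the 2 that were not called.

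**Figure D1:**
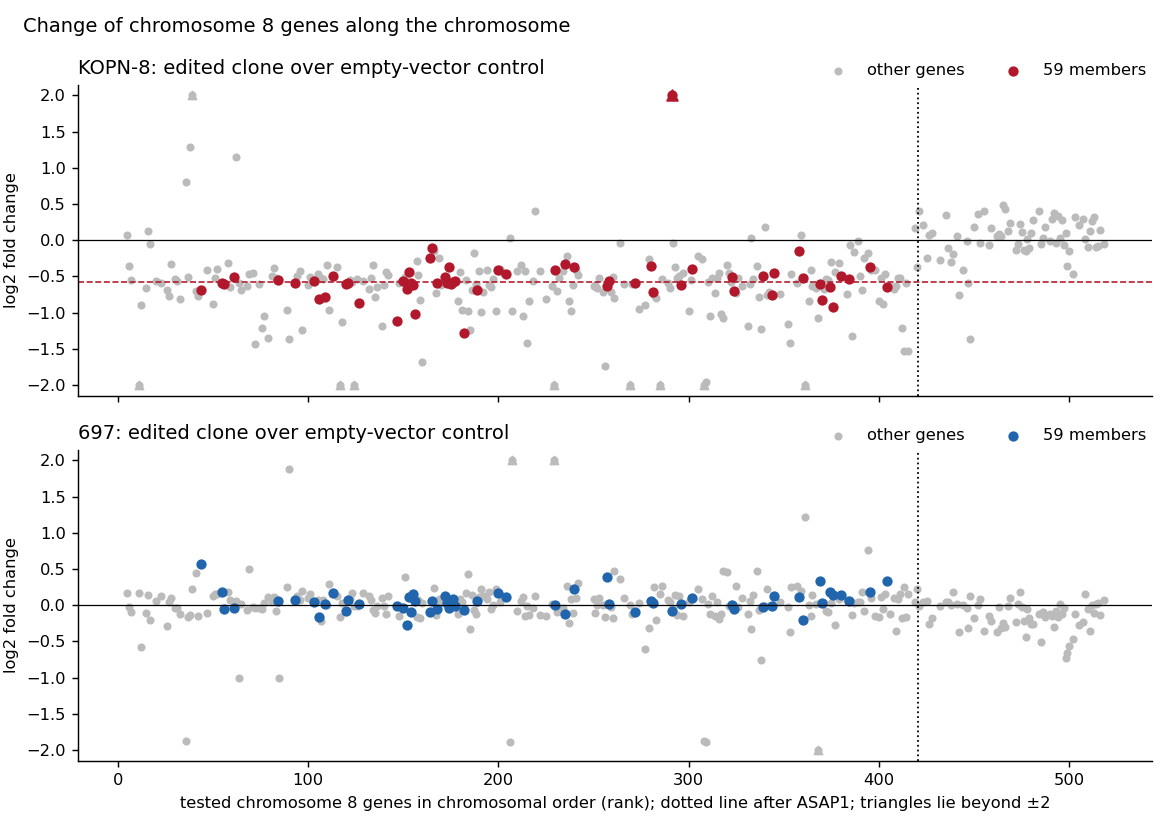
Log2 fold change (edited clone over empty-vector control) of tested chromosome 8 genes that averaged 5 CPM or more over the KOPN-8 libraries, in chromosomal order, for KOPN-8 (upper panel) and 697 (lower panel). Coloured points are the 59 genes, grey points other chromosome 8 genes, the dashed line the KOPN-8 median of -0.58 and the dotted line the position just after ASAP1; in KOPN-8 most points lie around the dashed line up to ASAP1 and around 0 beyond it, and in 697 the 59 genes lie around 0.

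The list ends before ASAP1. It was selected on this contrast, so its edge is not independent of the values, which were as follows. TATDN1, the last of the 59 along the chromosome, had a log2 fold change of -0.64 (SE 0.0952) in KOPN-8. ASAP1, which lies after it and encodes a GTPase-activating protein for ARF proteins, had -0.37 (SE 0.0728). CYRIB, the gene directly before ASAP1, did not share the fall, with 0.17 in KOPN-8 and 0.04 in 697 at a mean of 144 CPM in KOPN-8, and was chosen after its values were seen. EFR3A, the next tested gene and the first outside, had 0.40 (SE 0.0922), and the 98 tested genes beyond ASAP1 had a median of 0.04. Both arms up to that point were low: the median was -0.59 over the 30 short-arm genes and -0.52 over the 29 long-arm genes. The plot along the chromosome shows a similar level on either side of the centromere and values around 0 beyond ASAP1.

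How closely the genes kept to the common value was measured by a band of 0.3 on the log2 scale around the chromosome 8 median, which spans -0.88 to -0.28. Of the 59 genes, 51 lay within it (86.4%), 4 lay above it and 4 lay below it. Of all 420 tested chromosome 8 genes up to ASAP1, 234 lay within the band (55.7%), 87 above and 99 below. The 420 include genes with few or no counts in KOPN-8. Of the 288 that averaged at least 5 CPM in a KOPN-8 group, 203 lay within the band (70.5%), 32 above and 53 below. Both sets include the 59, which were chosen on this contrast. The median standard error was 0.0758 for the 59 and 0.104 for the 420, and its part in the wider scatter of the 420 was not tested. CPNE3 aside, the log2 fold changes of 58 genes had an SD of 0.206, which is larger than their median standard error. In 697 the same quantity had an SD of 0.140 over the 59 genes with a median standard error of 0.0771. In all, 21 of the 59 lay more than 2 standard errors from the KOPN-8 chromosome 8 median, 12 of them above and 9 below. The fold change had no clear relation to the level of a gene, with a Spearman rho of -0.0978 across the 59 genes, which share the same libraries and are not independent replicates.

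**Figure D2:**
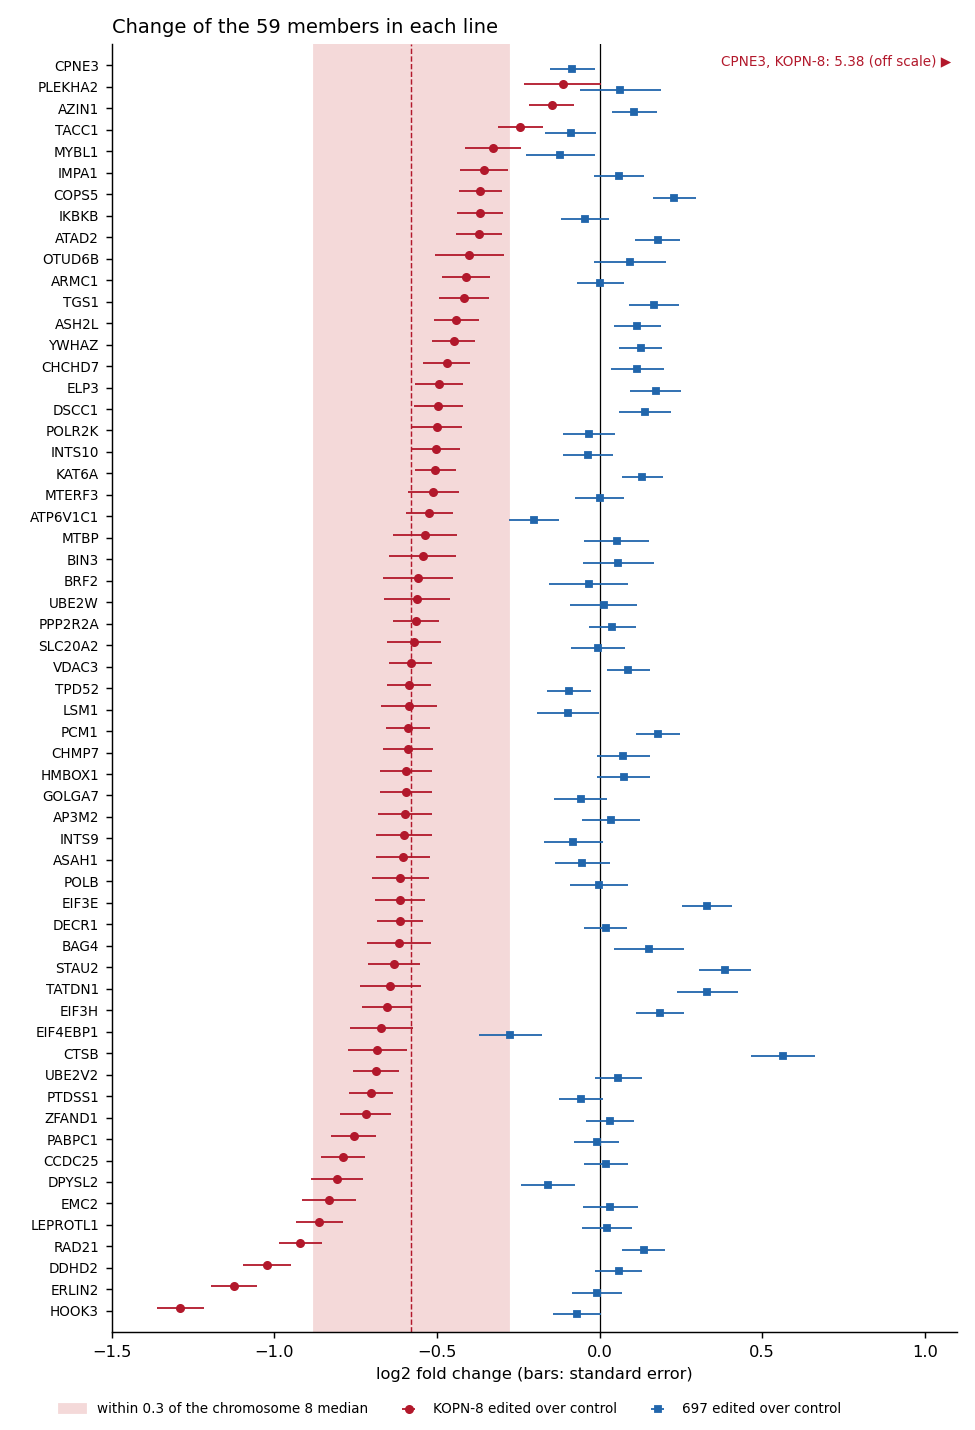
Log2 fold change with its standard error for each of the 59 genes in KOPN-8 (circles) and 697 (squares), sorted by the KOPN-8 value; the shaded band lies within 0.3 of the chromosome 8 median in KOPN-8. With CPNE3, which is off the scale at 5.38, 4 genes lie right of the band, 4 lie left of it, and the 697 values scatter around 0.

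CPNE3, which encodes copine 3, a calcium-dependent phospholipid-binding protein, departed furthest. It stood at 20.1, 17.6 and 16.7 CPM in edited KOPN-8, against 0.371, 0.466 and 0.435 CPM in control KOPN-8. These control levels rest on 5, 8 and 8 counts, 21 in all, and the ratio of the group means was 42.8. In 697 it stood at 147, 145 and 150 CPM in the edited clone and at 165, 156 and 147 CPM in the control. Of the 4 groups, control KOPN-8 was the one nearly without CPNE3 transcripts, and edited KOPN-8 reached 11.6% of the level of control 697. Its nearest tested protein-coding neighbours with at least 5 CPM did not share this: RMDN1 had a log2 fold change of -0.66 (SE 0.07) and RIPK2 one of -0.37 (SE 0.0954) in KOPN-8. CPNE3 was the only one of the 59 that was higher in edited KOPN-8.

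The other 3 genes above the band had values between the band and 0. PLEKHA2, an adaptor that binds phosphoinositides and acts in B-cell signalling, had 356, 344 and 311 CPM in edited KOPN-8, against 358, 369 and 366 CPM in control KOPN-8. The groups touched without overlapping, and the log2 fold change was -0.11 (SE 0.119). AZIN1, which protects ornithine decarboxylase from antizyme and so keeps polyamine synthesis running, had 307, 318 and 286 CPM in edited and 321, 345 and 343 CPM in control KOPN-8, a log2 fold change of -0.15 (SE 0.0687). TACC1, a coiled-coil protein of the centrosome that also binds nuclear receptors, had 181, 181 and 171 CPM in edited and 204, 223 and 203 CPM in control KOPN-8, with -0.24 (SE 0.0705). These 3 genes therefore kept 92.5%, 90.3% and 84.5% of their control level, in that order. PLEKHA2 and TACC1 lie close together on the short arm and AZIN1 on the long arm. A transcript antisense to AZIN1, AZIN1-AS1, was also counted, and the strand setting of the counting is not given in the sources used here, so reads of that pair cannot be fully told apart.

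At the other end, HOOK3, which links dynein to its cargo on microtubules, was the lowest of the 59. It had 192, 177 and 161 CPM in edited KOPN-8, against 437, 453 and 406 CPM in control KOPN-8, a log2 fold change of -1.29 (SE 0.0725), or 40.9% of the control. ERLIN2, an endoplasmic reticulum membrane protein that targets IP3 receptors for degradation, had 61.2, 57.1 and 57.4 CPM in edited and 125, 132 and 126 CPM in control KOPN-8, a log2 fold change of -1.12 (SE 0.0695). DDHD2, a lipase of triglycerides and phospholipids, had 68.1, 57.9 and 62.3 CPM in edited and 121, 126 and 135 CPM in control KOPN-8, with -1.02 (SE 0.0728). In these 3 genes the edited level was at or under 49.2% of the control. RAD21, the cohesin subunit that closes the ring and is cut by separase, had 504, 494 and 442 CPM in edited KOPN-8, against 914, 929 and 885 CPM in control KOPN-8, with -0.92 (SE 0.0663). The groups of all 4 genes lay far apart relative to their spread. In 697 the edited and control libraries of HOOK3, ERLIN2 and DDHD2 overlapped, and those of RAD21 did not. HOOK3 overlaps RNF170, DDHD2 overlaps NSD3 and PLPP5, and RAD21 overlaps UTP23, all on the opposite strand, so their reads cannot be fully told apart either.

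**Figure D3:**
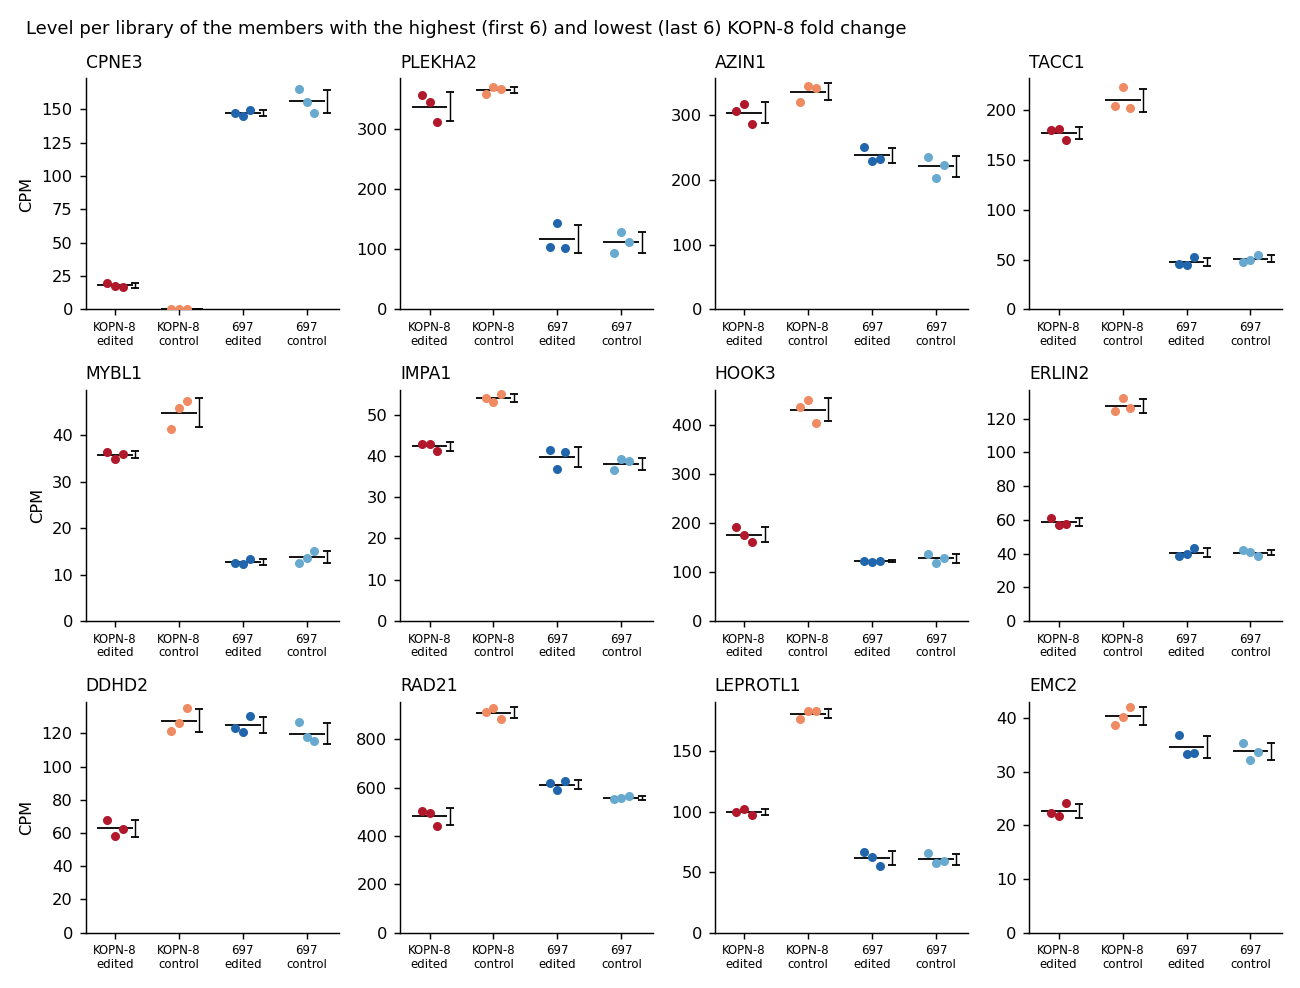
Level in CPM in each library (points), with the group mean (line) and SD (bar), for the 6 genes with the highest and the 6 with the lowest KOPN-8 fold change. Groups are edited KOPN-8, control KOPN-8, edited 697 and control 697 from left to right, and every axis starts at 0; the edited KOPN-8 points lie below the control KOPN-8 points in all panels except that of CPNE3.

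Other genes described below are ordered by what their products do. The genome maintenance and cell division group held 6 genes with a KOPN-8 median of -0.60, and 5 lay within the band, RAD21 being the exception. POLB, the DNA polymerase that fills gaps in base excision repair, had 21.5, 21.5 and 20.5 CPM in edited and 32.1, 33.1 and 31.8 CPM in control KOPN-8, a log2 fold change of -0.61 (SE 0.0872). DSCC1, a subunit of the clamp loader that serves sister chromatid cohesion, had 59.1, 55.5 and 50.9 CPM in edited and 76.6, 79.7 and 77.1 CPM in control KOPN-8, with -0.50 (SE 0.0758). UBE2V2, which helps build ubiquitin chains linked through lysine 63 in DNA damage tolerance, had -0.69 (SE 0.0701). PCM1, the scaffold of centriolar satellites, had -0.59, and MTBP, needed for the firing of replication origins, had -0.54. In each of these 5 genes the edited KOPN-8 libraries lay below all control libraries by margins wider than the spread within groups.

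Chromatin and transcription genes numbered 11, with a median of -0.50, and 10 were within the band. KAT6A, the histone acetyltransferase MOZ, had 156, 163 and 151 CPM in edited and 212, 233 and 223 CPM in control KOPN-8, a log2 fold change of -0.50 (SE 0.0622). ASH2L, a core subunit shared by the KMT2 and SET1 histone methyltransferase complexes, had 102, 94.5 and 89.8 CPM in edited and 127, 130 and 131 CPM in control KOPN-8, with -0.44 (SE 0.0688). KAT6A in edited KOPN-8 stood at 70.5% and ASH2L at 73.7% of the control. The Integrator subunits INTS9 and INTS10, parts of a complex that cleaves nascent small nuclear RNAs and other transcripts, had -0.60 (SE 0.0869) and -0.50 (SE 0.0748). ELP3, the catalytic subunit of Elongator, which modifies transfer RNAs, had -0.49 (SE 0.0741). POLR2K, a small subunit shared by the nuclear RNA polymerases, had -0.50 (SE 0.0779) and BRF2, a factor of RNA polymerase III at small nuclear RNA genes, had -0.56 (SE 0.107). HMBOX1, which binds telomeric repeats, had -0.60. The smallest fall of this group was that of TACC1, described above, which was its only gene outside the band. ATAD2, a bromodomain ATPase, had -0.37 (SE 0.0699), and MYBL1 is a MYB-family transcription factor. MYBL1 had 36.4, 34.9 and 35.9 CPM in edited and 41.4, 45.9 and 47.2 CPM in control KOPN-8, with -0.33 (SE 0.086).

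Signalling genes, 7 in number, had the smallest median fall of the role groups, -0.45, and 6 were within the band. IKBKB, the catalytic IκB kinase subunit IKKβ, had 78.3, 76.7 and 89.2 CPM in edited and 102, 105 and 108 CPM in control KOPN-8, a log2 fold change of -0.37 (SE 0.0708). IMPA1, which recycles inositol from its monophosphate, had 43.0, 42.8 and 41.1 CPM in edited and 54.1, 53.2 and 55.1 CPM in control KOPN-8, with -0.36 (SE 0.0737). YWHAZ, the zeta form of the 14-3-3 adaptors, had 1113, 1142 and 1031 CPM in edited and 1483, 1524 and 1481 CPM in control KOPN-8, with -0.45 (SE 0.0659). All 3 fell less than the chromosome 8 median. PPP2R2A, a regulatory subunit of the phosphatase PP2A, had -0.56 (SE 0.071). BAG4, which holds TNF receptor signalling in check, had -0.62 (SE 0.0986). TPD52, a coiled-coil protein of vesicle traffic named for its overexpression in tumours, had 90.9, 98.5 and 93.9 CPM in edited and 146, 142 and 137 CPM in control KOPN-8, with -0.59, among the 4 values nearest to the chromosome 8 median.

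Translation and mRNA handling was represented by 9 genes with a median of -0.61, of which 8 were within the band and AZIN1 was the exception. PABPC1, which coats poly-A tails, had 1376, 1417 and 1387 CPM in edited and 2399, 2310 and 2349 CPM in control KOPN-8, a log2 fold change of -0.76 (SE 0.0694). EIF3E had 399, 419 and 389 CPM in edited and 636, 611 and 600.3 CPM in control KOPN-8, with -0.61 (SE 0.0775), and EIF3H had -0.65 (SE 0.0756). Both encode subunits of eIF3, which brings the small ribosomal subunit to mRNA, and they fell by nearly the same amount. EIF4EBP1, the repressor of cap-dependent translation that mTORC1 inactivates, had -0.67 (SE 0.0968). LSM1, of the ring that marks deadenylated mRNA for decapping, had 24.3, 24.4 and 23.1 CPM in edited and 35.9, 35.2 and 36.5 CPM in control KOPN-8, with -0.59 (SE 0.0871). STAU2, which binds double-stranded RNA, had -0.63, MTERF3, a regulator of mitochondrial transcription and ribosome assembly, had -0.51, and TGS1, which makes the trimethylguanosine cap, had -0.42.

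Ubiquitin and protein turnover genes numbered 5, with a median of -0.56. COPS5, the catalytic subunit of the COP9 signalosome, which removes NEDD8 from cullins, had 75.1, 80.4 and 71.1 CPM in edited and 93.0, 99.2 and 99.5 CPM in control KOPN-8, a log2 fold change of -0.37 (SE 0.0664). UBE2W, a conjugating enzyme for protein N termini, had -0.56, ZFAND1, which helps clear stress granules, had -0.72, and the deubiquitinase OTUD6B had -0.40. ERLIN2, at -1.12, was the only gene of this group outside the band.

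Membrane traffic, lysosome and cytoskeleton genes formed the largest group, with 13 genes, a median of -0.60 and 11 within the band. CTSB, the lysosomal protease cathepsin B, had 77.5, 81.2 and 67.7 CPM in edited and 122, 126 and 115 CPM in control KOPN-8, a log2 fold change of -0.68 (SE 0.0912). ASAH1, the lysosomal acid ceramidase, had -0.60 (SE 0.0826), and ATP6V1C1, a subunit of the proton pump that acidifies lysosomes, had -0.52 (SE 0.0725). The 3 lysosomal genes were thus all near the common value. LEPROTL1, an endosomal membrane protein, had between 97.3 and 102 CPM in the 3 edited libraries and 177, 183 and 183 CPM in control KOPN-8, with -0.86 (SE 0.0718), just inside the band. EMC2, a subunit of the complex that inserts proteins into the endoplasmic reticulum membrane, had 22.3, 21.7 and 24.1 CPM in edited and 38.8, 40.3 and 42.1 CPM in control KOPN-8, with -0.83 (SE 0.084). DPYSL2, a tubulin-binding protein, had -0.81 (SE 0.0803). AP3M2, of the AP-3 adaptor that sorts lysosomal cargo, CHMP7, of the ESCRT-III machinery that reseals the nuclear envelope, and GOLGA7, a partner in protein palmitoylation, had -0.60, -0.59 and -0.60. BIN3, a membrane-curving protein, had -0.54, and ARMC1, a protein of mitochondrial distribution, had -0.41.

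The metabolism, transport and mitochondria group had 6 genes, a median of -0.60 and 5 within the band, with DDHD2 the exception. VDAC3, a channel of the outer mitochondrial membrane, was closest of all to the chromosome 8 median, with 123, 126 and 111 CPM in edited and 172, 191 and 176 CPM in control KOPN-8 and a log2 fold change of -0.58 (SE 0.0665). SLC20A2, a sodium-dependent phosphate transporter, had 27.3, 29.1 and 27.3 CPM in edited and 41.0, 40.1 and 43.0 CPM in control KOPN-8, with -0.57 (SE 0.0828). PTDSS1, which makes phosphatidylserine, had -0.70, DECR1, which takes part in the oxidation of unsaturated fatty acids in mitochondria, had -0.61, and CHCHD7, a small mitochondrial intermembrane space protein, had -0.47. Of 2 less characterised genes, CCDC25, a receptor for DNA of neutrophil extracellular traps at the cell surface, had -0.79 (SE 0.0665), and TATDN1, a putative nuclease, had -0.64. CCDC25 was among the 9 genes that lay more than 2 standard errors below the chromosome 8 median.

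The 697 contrast was not the one that chose the 59 genes, but it was named as the reference of that contrast. It was tested with this limit. Their median log2 fold change there, edited over control, was 0.03, and that of all 420 chromosome 8 genes up to ASAP1 was 0.04. Of the 59, 5 were called higher and 0 lower (edgeR quasi-likelihood test, Benjamini-Hochberg adjustment over all genes tested), while 4.85% of all tested genes were called higher and 4.6% lower. With DESeq2 0 were called lower, and 2 were lower at an unadjusted p under 0.05. The 3 edited libraries lay above the 3 controls for 13 of the 59 and below them for 2, with the rest overlapping, and over all tested genes this held for 12.5% and 11.6%. Deviations from the group means correlated weakly between same-numbered 697 libraries (r = 0.104 to 0.207), and differently numbered libraries were not compared. With the replicate number as a block 8 were called higher and 2 lower.

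CTSB showed the largest change in 697, with 52.2, 62.7 and 61.6 CPM in the edited clone and 40.3, 44.96 and 33.7 CPM in the control. All edited libraries lay above all controls. On the log2 scale edited 697 exceeded its control by 0.56 (SE 0.0983, with an adjusted p of 0.000377 in edgeR's quasi-likelihood test). STAU2 had 101, 99.1 and 99.7 CPM in edited and 76.7, 70.9 and 82.1 CPM in control 697, a log2 fold change of 0.39 (SE 0.0806; edgeR adjusted p = 0.00229). EIF3E had 1704, 1708 and 1840 CPM in edited and 1562, 1388 and 1230 CPM in control 697, with 0.33 (SE 0.0767; edgeR adjusted p = 0.00604). These 3 genes, then, were higher in the edited clone of 697 and lower in the edited clone of KOPN-8. TATDN1 had 46.7, 43.7 and 49.1 CPM in edited and 43.1, 35.4 and 32.1 CPM in control 697, with 0.33 (SE 0.0933; edgeR adjusted p = 0.0235). COPS5 had 113, 108 and 108 CPM in edited and 94.4, 94.6 and 92.0 CPM in control 697, with 0.23 (SE 0.0664; edgeR adjusted p = 0.0284). TATDN1 and COPS5 were less secure than the other 3. The count of genes called higher fell to 3 without control replicate 2, without control replicate 3 or without edited replicate 1 of 697. Over all the alternatives the edgeR or DESeq2 adjusted p of TATDN1 ran from 0.00117 to 0.151 and that of COPS5 from 0.00746 to 0.110. TATDN1 overlaps NDUFB9 and AC090198.1, and COPS5 overlaps CSPP1, all on the opposite strand. With the strand setting unknown, their reads cannot be fully told apart. With only the 697 libraries in the fit, EIF3E had an adjusted p of 0.0602.

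Among genes that passed no threshold in 697, EIF4EBP1 had a log2 fold change of -0.27 (SE 0.0968; edgeR adjusted p = 0.0799) and ATP6V1C1 one of -0.20 (SE 0.0761; edgeR adjusted p = 0.105). For both, the 3 edited libraries lay below the 3 controls. With the replicate block their edgeR adjusted p was 0.0111 and 0.0497. PCM1, EIF3H and ATAD2, with log2 fold changes of 0.18, 0.19 and 0.18, were called higher with the block only, at edgeR adjusted p values of 0.0346, 0.0244 and 0.0294. The rest of the 59 were called neither way in 697 with or without the block.

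The genes that departed furthest in KOPN-8 showed no matching departure in 697. HOOK3 had 123, 121 and 123 CPM in edited and 137, 119 and 130 CPM in control 697, a log2 fold change of -0.07 (SE 0.0742; edgeR adjusted p = 0.643). ERLIN2 had 38.3, 39.7 and 43.4 CPM in edited and 42.0, 41.0 and 38.7 CPM in control 697, with -0.01 (SE 0.0757; edgeR adjusted p = 0.987). DDHD2 had 123, 121 and 131 CPM in edited and 127, 118 and 115 CPM in control 697, with 0.06 (SE 0.0716; edgeR adjusted p = 0.696). The groups of these 3 genes overlapped. RAD21 had 619, 590 and 627 CPM in edited and 552, 555 and 565 CPM in control 697, so that its groups did not overlap, with 0.14 (SE 0.066; edgeR adjusted p = 0.229). AZIN1 had 251, 229.5 and 233 CPM in edited and 236, 203 and 224 CPM in control 697, with 0.11 (SE 0.0696; edgeR adjusted p = 0.397). PLEKHA2 had 104, 143 and 102 CPM in edited and 93.7, 129 and 112 CPM in control 697, with 0.06 (SE 0.124; edgeR adjusted p = 0.833). PLEKHA2 was the most variable of these between replicate libraries of 697. CPNE3, at -0.08 (SE 0.0689; edgeR adjusted p = 0.522), and TACC1, at -0.09 (SE 0.079; edgeR adjusted p = 0.562), also overlapped between the groups. A p above the threshold does not show that the levels were equal. By role, the 697 medians ran from -0.03 in the chromatin and transcription group to 0.11 in the translation and mRNA handling group, the less characterised pair aside.

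A further question was whether the level of the 59 genes in KOPN-8 relative to 697 stood out in the edited clone or in the control. These values share libraries with the contrast that chose the genes, and the lines differ in much else, so they are a description. Between the edited clones, KOPN-8 over 697, the median log2 fold change of the 59 genes was -0.12, and 24 of the 59 were above 0. Between the controls it was 0.49, and 48 of the 59 were above 0. Over all tested genes the medians were -0.01 in both comparisons. By arm, the short-arm genes had a median of 0.11 between the edited clones and 0.71 between the controls, and the long-arm genes had -0.35 between the edited clones and 0.26 between the controls. Chromosome 8 genes beyond ASAP1 had medians of -0.43 between the edited clones and -0.59 between the controls. Upper-quartile scaling moved the median of the 59 genes between the edited clones to -0.191, and leaving out edited KOPN-8 replicate 3 moved it to -0.0754.

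**Figure D4:**
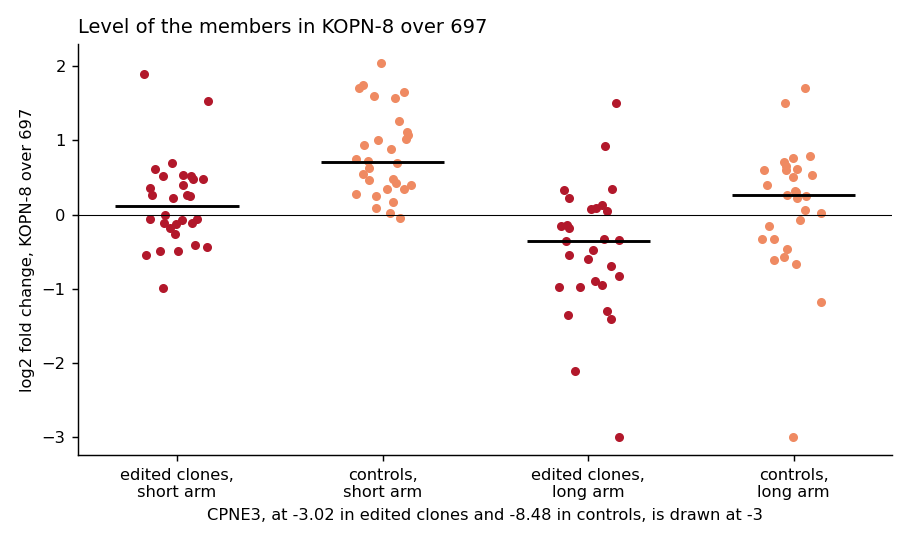
Log2 fold change in level, KOPN-8 over 697, of the short-arm and long-arm genes among the 59, between the edited clones and between the controls; each point is a gene and each bar a median. The edited clones lie lower than the controls on both arms, with medians of 0.11 and 0.71 on the short arm and -0.35 and 0.26 on the long arm.

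By role, signalling genes had a median line difference of 0.22 between the edited clones and 0.72 between the controls, which was the highest between the controls. Membrane traffic, lysosome and cytoskeleton genes had medians of 0.23 between the edited clones and 0.65 between the controls. It was lowest for metabolism, transport and mitochondria, at -0.76 between the edited clones and 0.05 between the controls, and for translation and mRNA handling, at -0.70 and -0.04. Between the edited clones 6 of the 11 chromatin and transcription genes and 1 of the 6 genome maintenance genes were higher in KOPN-8 than in 697, and between the controls all of them were. Single genes show the range of these line differences. TACC1 and PLEKHA2 stood higher in KOPN-8 whichever pair was compared: TACC1 by 1.90 between the edited clones and 2.05 between the controls, and PLEKHA2 by 1.53 and 1.71, on the log2 scale. RAD21 was at -0.35 between the edited clones and 0.71 between the controls, and DDHD2 at -0.99 and 0.09. HOOK3 remained higher in KOPN-8, at 0.53 between the edited clones and 1.75 between the controls. Genes of translation and mRNA handling went both ways, with 2 of the 9 above 0 between the edited clones and 4 between the controls. EIF3E was at -2.12 between the edited clones and -1.18 between the controls, and PABPC1 at -1.36 and -0.61, so both were lower in KOPN-8 than in 697 in either comparison.

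Because many of the 59 genes encode parts of complexes, the other parts were examined as well, in 23 lists written for the complexes and pathways of these genes. The lists name 210 partner genes, of which 6 lie on chromosome 8, 3 others were not tested and 201 were tested on other chromosomes. The KOPN-8 contrast did not choose these 201 themselves. The lists were written around genes that it did choose, with earlier results of these data known. In KOPN-8, 36 of them were called higher (17.9%), 9 were called lower (4.48%) and 156 were not called, by edgeR's quasi-likelihood test with Benjamini-Hochberg adjustment over all genes tested. Over all tested genes 11.5% were called higher and 17.2% lower, chromosome 8 included. Of the 14700 tested genes not placed on chromosome 8, 1726 were called higher and 2315 lower. The median log2 fold change of the 201 partner genes was 0.07, against -0.59 for the 59 genes themselves and 0.00 for all genes. Without control replicate 1 of KOPN-8 the counts were 21 higher and 5 lower, without edited replicate 2 the count higher was 22, and without edited replicate 3 the count lower was 4. In 697, 7 partner genes were called higher (3.48%) and 0 lower, with a median of 0.01, while 4.85% of all tested genes were called higher and 4.6% lower. At an unadjusted p under 0.05, 10 were lower in 697, and DESeq2 called 1. With the replicate block 12 were higher and 3 lower in 697.

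**Figure D5:**
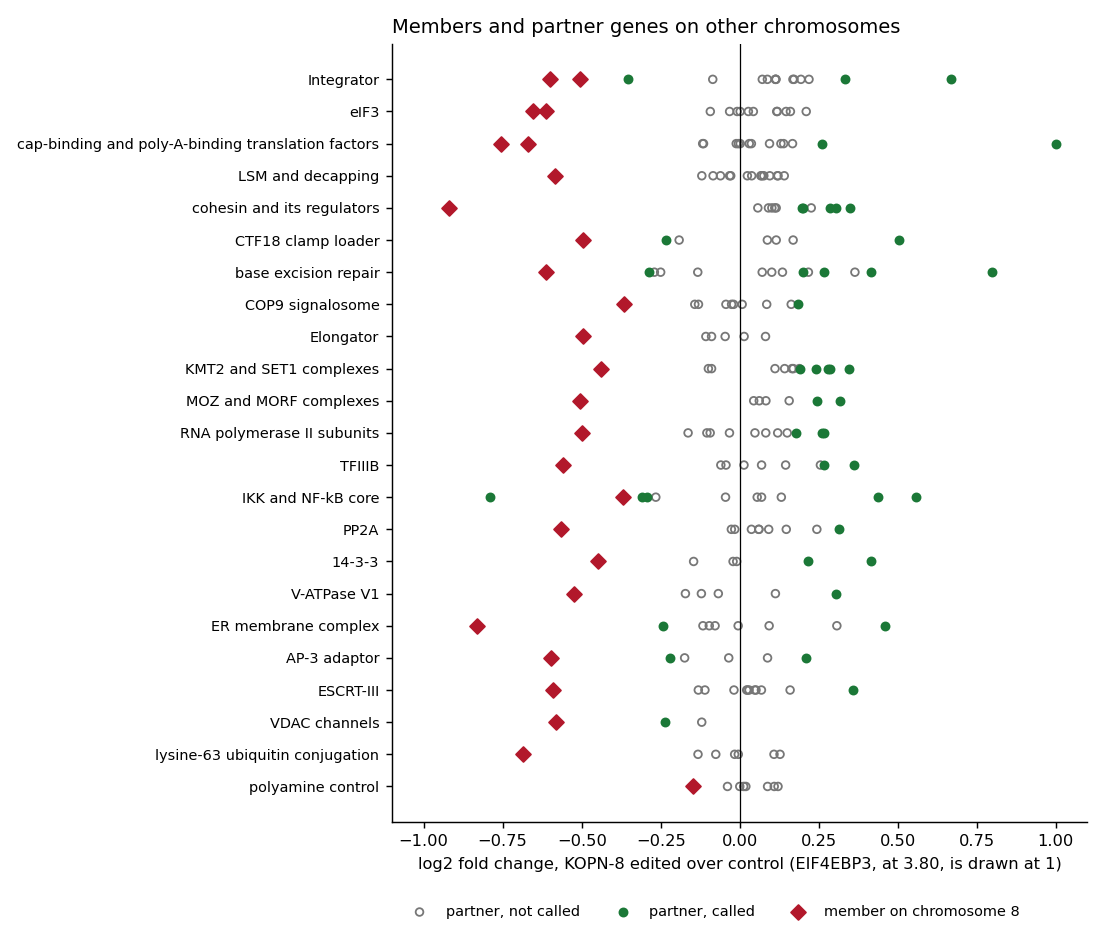
Log2 fold change in KOPN-8, edited over control, of the genes of each complex or pathway encoded on chromosome 8 (diamonds) and of their partner genes on other chromosomes (circles, filled where called at an adjusted p under 0.05). The diamonds lie between -0.92 and -0.15 and the partner genes mostly lie near 0, with NFKB1 at -0.79 and EIF4EBP3, drawn at the edge, at 3.80.

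Cohesin and the KMT2 and SET1 complexes had the most partner genes called higher, 5 in each list. With RAD21 at -0.92, 5 of the 11 other cohesin genes tested were higher in edited KOPN-8. STAG1, a core subunit, averaged 89.4 ± 0.665 CPM in edited and 70.2 ± 3.18 CPM in control KOPN-8 (SD, n = 3 each), a log2 fold change of 0.35 (SE 0.0758; edgeR adjusted p = 0.001). PDS5B, which regulates release of the ring, averaged 136 ± 8.57 CPM in edited and 110.4 ± 5.26 CPM in control KOPN-8, with 0.30 (SE 0.067; edgeR adjusted p = 0.00113). The remaining called genes, NIPBL, STAG2 and SMC1A, are named after their values were seen, with log2 fold changes of 0.29, 0.20 and 0.20. The calls of STAG1, PDS5B and NIPBL held under every alternative run. STAG2 and SMC1A lost theirs without single KOPN-8 libraries, with edgeR adjusted p values of up to 0.109 and 0.122. STAG2 lost its call without control replicate 1, 2 or 3 or edited replicate 2, and SMC1A without any of these or edited replicate 1. In the KMT2 and SET1 complexes, where ASH2L was at -0.44, 5 of 12 partner genes were higher, among them the methyltransferase KMT2C with 0.35 (SE 0.0752; edgeR adjusted p = 0.000952). The other 4, of which KMT2A, KMT2B and MEN1 are named after their values were seen, were SETD1A with 0.29, KMT2B with 0.28, MEN1, the scaffold menin, with 0.24 and KMT2A with 0.19. MEN1 kept its call throughout. SETD1A lost its call without control replicate 2, KMT2B without control replicate 2 or edited replicate 3, and KMT2A without control replicate 1 or 3 or any 1 edited replicate, with edgeR adjusted p values of up to 0.0747, 0.0949 and 0.245. KMT2A also lost its call when the scaling left out chromosomes 8 and 13. Since KOPN-8 carries a KMT2A fusion, gene-level counts of KMT2A there do not tell fusion and intact transcripts apart. STAG2 and KMT2A were called higher in edited 697 too, with log2 fold changes of 0.25 (edgeR adjusted p = 0.0116) and 0.25 (edgeR adjusted p = 0.0213), where RAD21 and ASH2L, at 0.14 and 0.12, were not called.

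In other lists the members on chromosome 8 were lower while few partner genes were called. None of 11 eIF3 partners of EIF3E and EIF3H, 14 LSM and decapping partners of LSM1, 5 Elongator partners of ELP3, 6 partners of UBE2V2 or 8 polyamine genes beside AZIN1 was called in KOPN-8 by edgeR. At an unadjusted p under 0.05 there were 2 in eIF3, 1 in the LSM list and 0 in each of the others, and DESeq2 called 1 in eIF3 and 0 in the others. Integrator, beside INTS9 and INTS10, had INTS6 at 0.33 (SE 0.0695; edgeR adjusted p = 0.00065) and INTS13 at -0.35 (SE 0.0742; edgeR adjusted p = 0.000712). The clamp loader list of DSCC1 had 1 of 6 partner genes called higher and 1 called lower. The higher one was RFC5 at 0.50 (SE 0.0715; edgeR adjusted p = 5.74e-06). Beside YWHAZ, YWHAB rose to 410 ± 38.7 CPM in edited KOPN-8, against 307 ± 16.1 CPM in the control (SD, n = 3 each), a log2 fold change of 0.42 (SE 0.0735; edgeR adjusted p = 9.9e-05). PPP2R1B, a scaffold subunit of PP2A that binds the class of subunit PPP2R2A belongs to, had 0.31 (SE 0.0801; edgeR adjusted p = 0.00405). VPS4B, the ATPase that takes ESCRT-III filaments apart, had 0.36 (SE 0.0646; edgeR adjusted p = 0.00013).

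The list around IKBKB moved both ways. NFKB1, the precursor of the NF-κB subunit p50, averaged 246 ± 20.0 CPM in edited and 425 ± 18.3 CPM in control KOPN-8, a log2 fold change of -0.79 (SE 0.0685; edgeR adjusted p = 2.46e-09), although it lies outside chromosome 8. NFKBIA, the inhibitor IκBα, had -0.29 (SE 0.0744; edgeR adjusted p = 0.00385), and REL, another NF-κB subunit, had 0.56 (SE 0.15; edgeR adjusted p = 0.00678). Of 13 base excision repair genes beside POLB, 4 were called higher and 1 lower. Those called higher included NEIL1, a glycosylase of oxidised bases, with 0.80 (SE 0.133; edgeR adjusted p = 0.000397). Beside EIF4EBP1, the related repressor EIF4EBP3 averaged 1.55 ± 0.252 CPM in edited and 0.101 ± 0.0645 CPM in control KOPN-8, a low level at which 3 counts in 1 library come to 0.164 to 0.227 CPM. Its fitted log2 fold change of 3.80 rests on these few control counts. EIF4G2, a translation initiation factor of the eIF4G family, had 0.26 (SE 0.0671; edgeR adjusted p = 0.0044). These named partner genes kept their calls under every alternative run. Another 18 that the naming rule covers lost theirs under at least 1 alternative, and of these SETD1A, POLR2A and EMC9 are given with values and the others are only counted.

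The partner genes on chromosome 8 itself give a further view of the common value. INTS8, of Integrator, had a log2 fold change of -0.52 (SE 0.0645) in KOPN-8, ESCO2, a cohesin acetyltransferase, had -0.34 (SE 0.0775), PPP2CB, a catalytic PP2A subunit, had -0.79 (SE 0.0894), and ATP6V1H, of the lysosomal proton pump, had -0.41 (SE 0.0831). ATP6V1B2, a subunit of the same pump as ATP6V1C1, was the exception, with 72.8 ± 5.35 CPM in edited and 32.9 ± 3.18 CPM in control KOPN-8 (SD, n = 3 each) and a log2 fold change of 1.15 (SE 0.0796). In 697 it stood at 78.4 ± 2.07 CPM in the edited clone and 75.3 ± 2.05 CPM in the control, so that, as with CPNE3, control KOPN-8 was the low group of the 4.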

How the data were processed

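Poly-A-selected RNA was sequenced in 12 libraries. The authors deposited whole-number counts of reads for each gene symbol, and these counts were the only values analysed. The tools named per the submitters' processing notes are Trimmomatic, STAR and DESeq2, and the build is hg19. The sources used here give no versions, no read counter or annotation, and no strand setting. No column was without a known sample.

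Groups followed the sample labels. edgeR 4.0.16 under R 4.3.3 served for all main fits: counts were scaled by TMM, filtered by filterByExpr to 15218 genes and tested with the robust quasi-likelihood F test, all 12 libraries sharing 1 estimate of the spread. Benjamini-Hochberg adjustment ran over every gene tested, and "called" means an adjusted p under 0.05. A standard error is the size of the log2 fold change divided by the square root of F. Precision depends on depth: totals ran from 10378769 to 18278662 counts, and a count of 0 in a library leaves room for 3 counts, or 0.164 to 0.289 CPM before scaling. Such limits cover counting error only. The chi-square of replicate libraries was 2.91 to 10.7 for each degree of freedom, above sampling noise.

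The 59 genes, the partner lists, the band and the tests were chosen with earlier results of these data known. Full values were given for the 6 highest, 6 lowest and 4 most central genes by KOPN-8 fold change, those called in 697 and those with a partner list. Partner genes were named where among the 2 smallest p of a list or the 10 largest changes, and among these where the call held under all alternatives. Exceptions are marked, and the result of 1 partner gene is not reported here. Chromosome and gene order came from GENCODE annotation of GRCh38, which placed 14928 tested genes (98.1%). No coordinates or sequences are given.

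Deviations from the group means correlated between same-numbered 697 libraries at r = 0.105, 0.207 and 0.104. All exceed 0.1, but differently numbered libraries were not compared. No label pairs these libraries, and the main 697 tests did not pair them. The replicate block was run as an alternative only. Of the 59 genes, 21 overlapped another tested gene, 19 of them on the opposite strand, and pseudogenes named after 8 of them held at most 1.12% of the counts of gene and pseudogenes together. Alternatives were DESeq2 1.42.0, other scalings, no filter, the replicate block, each line alone and leaving out each library. The fitting script was tested on simulated data.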

Additional observations from a re-analysis of the deposited data

Results flagged for a closer look

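The changes below differed between the lines by a test of the difference itself, the KOPN-8 change minus the 697 change on the log2 scale, in edgeR's quasi-likelihood test with Benjamini-Hochberg adjustment over all genes tested. All are partner genes on other chromosomes, since the 59 chromosome 8 genes were chosen on the KOPN-8 contrast and their line difference was not tested.

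Of the genes beside IKBKB, NFKB1 differed by -0.86 (SE 0.0976; edgeR adjusted p = 3.88e-07) and NFKBIA by -0.38 (SE 0.11; edgeR adjusted p = 0.0142), both lower in edited KOPN-8 and not called in 697. INTS13, of Integrator, differed by -0.53 (SE 0.104; edgeR adjusted p = 0.000568). The other flagged genes were higher in edited KOPN-8. STAG1, of cohesin, differed by 0.40 (SE 0.108; edgeR adjusted p = 0.00897). RFC5, of the clamp loader of DSCC1, differed by 0.40 (SE 0.102; edgeR adjusted p = 0.00577). YWHAB, of the 14-3-3 adaptors, differed by 0.46 (SE 0.104; edgeR adjusted p = 0.00222), and PPP2R1B, of PP2A, by 0.35 (SE 0.114; edgeR adjusted p = 0.0322).

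EIF4EBP3 differed by 3.65 (SE 0.48; edgeR adjusted p = 3.5e-06) at a low level, and EIF4G2 by 0.28 (SE 0.0948; edgeR adjusted p = 0.0364). SETD1A, a SET1 methyltransferase that shares ASH2L, differed by 0.38 (SE 0.115; edgeR adjusted p = 0.0189). POLR2A, the largest subunit of RNA polymerase II, differed by 0.36 (SE 0.109; edgeR adjusted p = 0.0215), and EMC9, of the complex of EMC2, by 0.65 (SE 0.19; edgeR adjusted p = 0.017). The KOPN-8 change of POLR2A, 0.26, was not called without control replicate 2 or 3 (edgeR adjusted p up to 0.0784). That of EMC9, 0.46, was not called without control replicate 3 or edited replicate 2 (edgeR adjusted p up to 0.0952), and that of SETD1A, 0.29, was not called without control replicate 2 (edgeR adjusted p = 0.0747).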

How the results depend on the processing

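No result turned its direction under any alternative. The 16 KOPN-8 values of the highest, lowest and most central genes moved by less than the spread between replicates in all 304 values computed. The number of the 59 genes within the band was 42 with a band of 0.2, 53 with one of 0.4, and 50 to 51 with 1 library left out. The KOPN-8 median of the 59 genes ran from -0.599 to -0.539 with 1 library left out, the smallest fall being that without edited replicate 3. The 697 tests of single genes kept their call in 83 of 95 values, and the partner tests in KOPN-8 in 581 of 646.

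Of the 59 genes, those called higher in 697 numbered 2 with only the libraries of the line, 8 with the replicate block and 3 to 6 with 1 library left out. Those called lower numbered 1 with no filter on low counts, 2 with the block and 0 to 2 with 1 library left out. The line difference between controls was 0.396 with upper-quartile scaling and 0.423 to 0.523 with 1 library left out. Between the edited clones it was -0.16 with the replicate block, -0.191 with upper-quartile scaling and -0.146 to -0.0754 with 1 library left out. Partner genes called higher in KOPN-8 numbered 21 to 43 with 1 library left out. Those called lower numbered 15 with only the libraries of the line and 4 to 11 with 1 library left out. In 697, partner genes called higher numbered 11 with DESeq2, 4 with only the libraries of the line, 12 with the block and 5 to 9 with 1 library left out, and those called lower 1 with DESeq2, 3 with no filter, 3 with the block and 0 to 2 with 1 library left out. The causes were not tested.

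Over all genes 1438 were called in 697, against 2319 with the replicate block. In KOPN-8 same-numbered libraries correlated at 0.0508, 0.0362 and 0.0743 and share only a number, and the block gave 3068 calls lower and 2280 higher over all genes, against 2619 and 1751 without it. Depth limits CPNE3 in control KOPN-8, with 21 counts, and EIF4EBP3.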

Other observations

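Chromosome 8 beyond ASAP1, which holds none of the 59 genes, was not flat in 697: its 98 tested genes had a median log2 fold change, edited over control, of -0.12, and 69 of them were below 0. Of all 15218 tested genes, 7405 were below 0 in 697, with a median of 0.00. Among the 98, 14 were called lower and 0 higher in 697 by edgeR, against 4.6% and 4.85% of all tested genes. The 98 genes had a median of 0.04 in KOPN-8, with 43 below 0. Of the 420 chromosome 8 genes up to ASAP1, 294 were called lower and 9 higher in KOPN-8 by edgeR's quasi-likelihood test with Benjamini-Hochberg adjustment. That count includes the 59 genes chosen on this contrast. Among the 361 others, 238 were called lower and 8 higher. These lie in the stretch of the selected list, so their calls are not independent of the selection and are a description. In KOPN-8, 17.2% of all tested genes were called lower and 11.5% higher. Besides CPNE3, the genes that were higher in edited KOPN-8 included BLK, a SRC-family kinase of B cells, with a log2 fold change of 3.09 in KOPN-8 and 0.22 in 697. BLK was chosen after its values were seen.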
